A study of Mus musculus with 12 samples.

Results

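The IL-6 family and the colony-stimulating factors were followed through 6 genes. Il6, Lif and Osm belong to the IL-6 family, and Csf1, Csf2 and Csf3 encode the colony-stimulating factors M-CSF, GM-CSF and G-CSF. They were picked by name from the 43131 genes of the table, all 6 were found, and each was read from its transcript with the highest total count. The RNA came from primary bone marrow-derived macrophages (BMDMs) of C57BL/6 mice, differentiated in all groups over 7 days in M-CSF, the protein that Csf1 encodes, at 50 ng/mL. All groups carried the floxed tlr4 allele. In the genotype tlr4f/f nothing deletes it, and in tlr4f/f-lysM-cre a Cre recombinase expressed from the lysM (Lyz2) locus deletes it in myeloid cells. Cells were left untreated (LPS-) or received 1 µg/mL of LPS, the bacterial endotoxin sensed by TLR4, for 6 h (LPS+). This gave 4 groups of 3 libraries, named by their column headings: A is headed LPS- tlr4f/f, B is headed LPS- tlr4f/f-lysM-cre, C is headed LPS+ tlr4f/f, and D carries the heading LPS+ tlr4f/f-lysM-cre. The comparisons ask how the cytokine response to LPS depends on TLR4 of macrophages. The labels give neither the age of the mice nor whether the libraries of a group came from separate mice. The p-values therefore measure only the spread between these libraries, which may be technical.

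IL-6, LIF and oncostatin M (the product of Osm) are secreted cytokines whose receptors share the signalling chain gp130, encoded by Il6st. Gp130 activates JAK kinases and STAT3, and STAT3 induces Socs3, which shuts the receptor down. M-CSF binds the kinase Csf1r and keeps macrophages alive. GM-CSF binds Csf2ra together with the beta chain Csf2rb, and G-CSF binds Csf3r and drives the production of neutrophils. In macrophages, TLR4 switches on Il6 and Csf3 through NF-kB, AP-1 and C/EBP factors, and the decay factors Zfp36 and Zc3h12a shorten the life of such cytokine mRNAs.

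The group headings of the table need a caution, since Tlr4, Lyz2 and Il1b go against them. Levels are CPM values, counts scaled to library size with edgeR's TMM factors. Tlr4 was at 76.7 to 147 CPM in group A and at 95.1 to 117 CPM in group B, against 24.3 to 31.1 CPM in group C and 24.6 to 27.5 CPM in group D. Lyz2, the locus that carries Cre, was at 5949 to 23251 CPM in groups A and B and at 10.3 to 75.6 CPM in groups C and D. Il1b, a cytokine induced by LPS, was at 1640 to 8218 CPM in groups B and D and at no more than 6.92 CPM in groups A and C. Tlr4 and Lyz2 thus divided the libraries along the LPS heading and Il1b along the genotype heading. Each result is therefore given in both readings, as headed and with the headings of groups B and C exchanged. Exchanged, B stands for tlr4f/f with LPS and C for tlr4f/f-lysM-cre without it. The exchange changes the name of a comparison and leaves its values and its direction as they are. The libraries held 33577087 to 56445268 counts, and a count of 0 allows up to 3 counts, 0.0481 to 0.0938 CPM by library (counting error only). All 8 macrophage markers were above 3 counts in every library. The 8 markers of fibroblasts and stroma summed to 10.9 to 1550 CPM, the 7 of neutrophils to 3.42 to 83.0 CPM and the 6 of T lymphocytes to at most 7.57 CPM. The 6 markers of mast cells and basophils summed to at most 0.349 CPM and the 5 of B lymphocytes to at most 1.96 CPM. Those of dendritic cells, of which at most 3 of 5 were above 3 counts, summed to 0.261 to 0.963 CPM in groups A and C and to 2.90 to 6.35 CPM in groups B and D, where the 6 genes were high as well, and their part in the results was not tested. Most of the higher sums came from Xcr1, at a mean of 0.145, 4.01, 0.204 and 2.46 CPM in groups A to D. Clec9a had a mean of 0.0864 CPM in group A and 0.21 CPM in group B, with overlap. Its mean was 0.298 CPM in group C and 0.208 CPM in group D. Zbtb46 had a mean of 0.123 CPM in group A and 0.434 CPM in group B, without overlap. It ran from 0.086 to 0.314 CPM in group C and from 0.222 to 0.441 CPM in group D, with a higher mean in group D. Flt3 and Siglech were under 3 counts in every library.

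Of the 6 genes, 4 lie on chromosome 11 of mm10: Lif (4257557 to 4272514) and Osm (4236420 to 4241026) are neighbours 16530 bases apart, Csf2 lies from 54247271 to 54249667 and Csf3 from 98701263 to 98703629. Il6 is on chromosome 5 (30013114 to 30019981) and Csf1 on chromosome 3 (107741048 to 107760469). Csf2 lies 15635 bases from Il3, which encodes another ligand of the shared beta chain and was at 0 counts in all 12 libraries. Of these genes only Csf2 overlaps another annotated gene, the antisense gene Gm12223, and the counting is not stated to use strand, so their reads cannot be told apart. RefSeq promoter windows were used for 4 of the 6 genes, and those of Il6, Lif and Csf1 are shown because they hold letters of the NF-kB or AP-1 type described above. They run from 250 to 21 bases before the start, 5′ to 3′ in the direction of the gene, on GRCm38.p6 (RefSeq), at chr5:30012864-30013093 (plus strand), chr11:4257318-4257547 (plus strand) and chr3:107760490-107760719 (minus strand). Capitals mark matches, searched on both strands, to GGGA, any base and TTTCC in a row (NF-kB type), TGANTCA (AP-1 type) and TTNNGNAA (C/EBP type), which do not overlap one another here.
Il6: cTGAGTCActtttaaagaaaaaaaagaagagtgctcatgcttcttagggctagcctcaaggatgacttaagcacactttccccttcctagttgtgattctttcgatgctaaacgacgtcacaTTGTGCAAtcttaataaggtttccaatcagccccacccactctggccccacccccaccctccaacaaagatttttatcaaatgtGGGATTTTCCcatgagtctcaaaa
Lif: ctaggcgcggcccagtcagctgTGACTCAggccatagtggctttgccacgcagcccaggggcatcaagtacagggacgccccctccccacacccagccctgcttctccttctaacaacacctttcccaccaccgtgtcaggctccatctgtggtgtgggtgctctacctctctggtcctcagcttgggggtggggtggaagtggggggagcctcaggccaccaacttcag
Csf1: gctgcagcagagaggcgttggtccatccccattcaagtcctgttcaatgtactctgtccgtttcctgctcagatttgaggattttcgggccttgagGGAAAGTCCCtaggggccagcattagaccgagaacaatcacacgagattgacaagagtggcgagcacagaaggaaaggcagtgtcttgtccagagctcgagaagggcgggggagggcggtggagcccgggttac
The NF-kB type letters begin 44 bases before the start of Il6 and 154 bases before that of Csf1. They occur in 0.411% of 32851 RefSeq windows of 300 bases around a start, 250 bases before to 50 after it. The AP-1 type letters begin 249 bases before the start of Il6 and 228 before that of Lif, and occur in 7.81% of the windows. The C/EBP type letters begin 128 bases before the start of Il6, and occur in 40.7% of the windows. A match of letters is a description of the sequence and not a measured binding site.

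Il6, the acute-phase cytokine of the family, was near absent in groups A and C. It was at 1.18, 0.209 and 0 CPM in group A and at 0.126, 0.333 and 0.172 CPM in group C. In group B it was at 1303, 444 and 471 CPM, and in group D at 161, 248 and 166 CPM. The lowest library of groups B and D was far above the highest of groups A and C, and the libraries of group B were all above those of group D. In bulk RNA, fewer cells of a type and less RNA per cell cannot be told apart.

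Lif, which maintains stem cells and acts on many tissues, had 20, 0 and 1 counts in group A and 2, 1 and 0 counts in group C. It was at 60.9, 3.06 and 60.7 CPM in group B and at 0.485, 0.524 and 0.400 CPM in group D. Replicate 2 of group B stood apart from the other two, with a highest-to-lowest ratio of 19.9 in the group. Osm, the neighbour of Lif, was detected in every library. It was at 4.50, 3.93 and 2.60 CPM in group A and at 2.14, 1.79 and 1.86 CPM in group C. In group B it was at 82.4, 12.4 and 12.8 CPM, and in group D at 13.5, 15.9 and 11.1 CPM. Replicates 2 and 3 of group B lay within the range of group D.

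Csf1, the macrophage growth factor that the cells were also given as protein, was detected in every library. It was at 22.0, 6.79 and 1.96 CPM in group A and at 5.65, 6.12 and 5.87 CPM in group C. In group B it was at 273, 107 and 73.9 CPM, and in group D at 33.7, 48.9 and 43.4 CPM. Each library of groups B and D was above each library of groups A and C. Csf2, which encodes GM-CSF, had 6, 1 and 0 counts in group A and 0, 1 and 0 counts in group C. It was at 104, 1.63 and 1.24 CPM in group B and at 0.832, 1.24 and 0.311 CPM in group D. A single library, replicate 1 of group B, held most of the counts of Csf2. Csf3, which encodes G-CSF, had 18, 9 and 0 counts in group A and 4, 3 and 11 counts in group C. It was at 708, 91.0 and 190.3 CPM in group B and at 44.5, 37.9 and 27.5 CPM in group D. Replicate 1 was the highest of group B for all 6 genes, and of group A for all 6 as well.

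**Figure D1:**
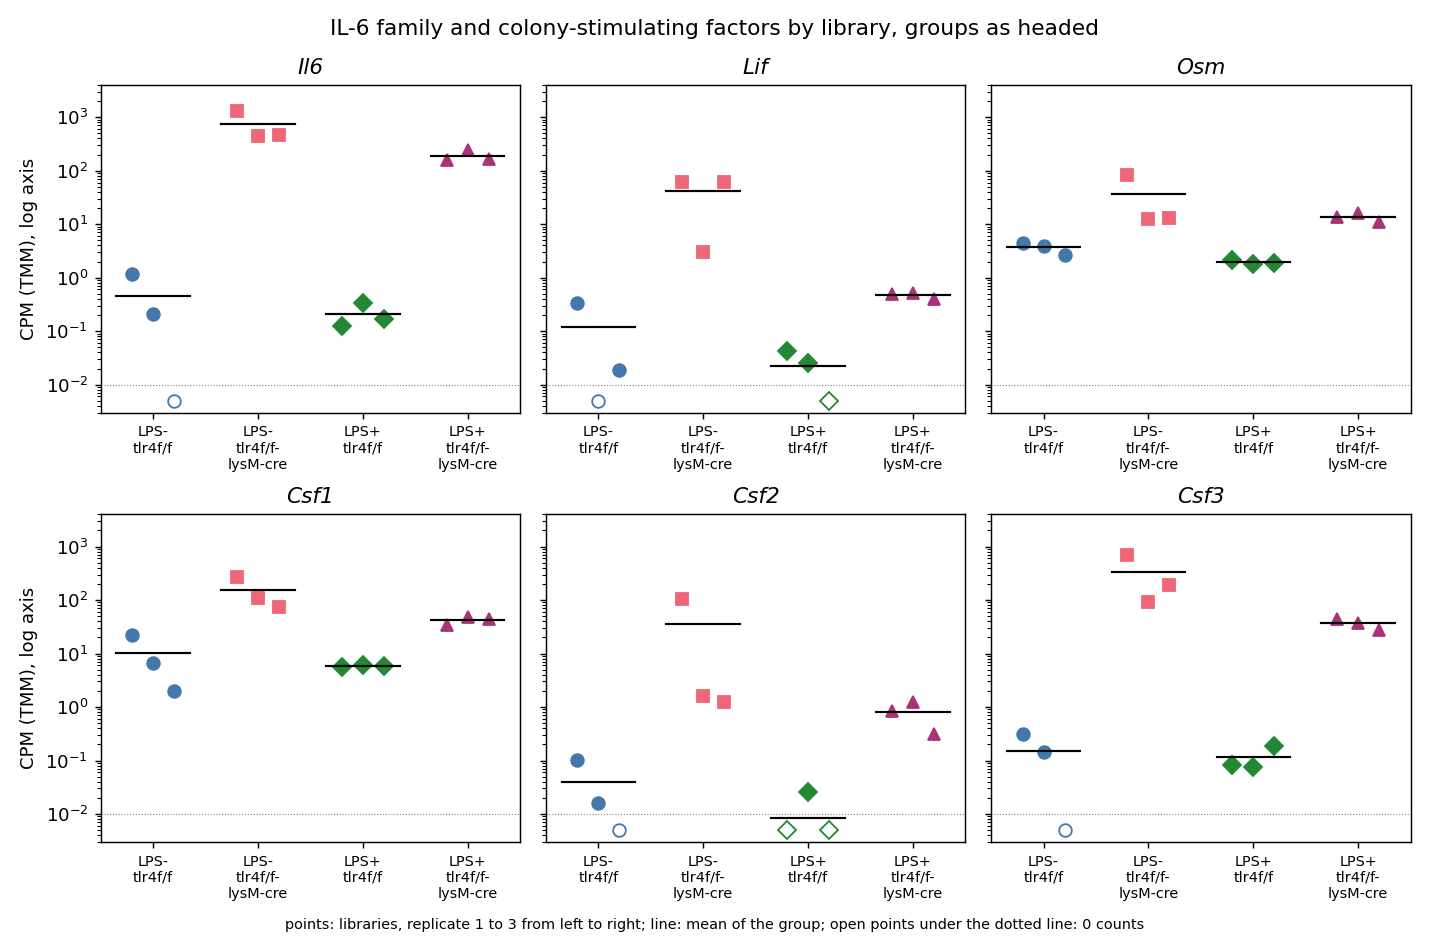
Level of the 6 genes in each library (CPM after TMM scaling, log axis), in the 4 groups as headed (A to D from left to right), with the mean of each group as a line and libraries at 0 counts as open points. The 6 libraries of groups B and D sit above the 6 of groups A and C in each panel, and Csf2 in group B runs from 1.24 to 104 CPM.

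Levels of different genes were compared per kb of the transcript read. In group B, Il6 led with 648 ± 428 CPM per kb (SD, n = 3), followed by Csf3 with 120 ± 121, Csf1 with 36.2 ± 25.5, Csf2 with 34.5 ± 57.3, Osm with 18.8 ± 21.1 and Lif with 8.62 ± 6.91. Il6 was above the range of Csf3 (389 CPM per kb at the lowest, against 259 at the highest), and from Csf3 downwards each gene overlapped the next. In group D, Il6 was again first with 168 ± 42.7 CPM per kb. Csf3 with 13.4 ± 3.15, Csf1 with 10.1 ± 1.84 and Osm with 7.09 ± 1.27 followed, and each overlapped the next in order. Csf2 with 0.769 ± 0.451 and Lif with 0.0973 ± 0.0132 CPM per kb were last, and neither overlapped its neighbours in the order. In groups A and C the order was led by other genes. In group C it was led by Csf1 with 1.41 ± 0.0554 and Osm with 1.01 ± 0.0959 CPM per kb, whose ranges did not overlap, and Il6 followed with 0.184 ± 0.0952. In group A, Csf1 with 2.45 ± 2.50, Osm with 1.93 ± 0.512 and Il6 with 0.406 ± 0.552 CPM per kb came first. There Il6 did not reach the range of Osm, while Csf1 overlapped both.

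The make-up of the cytokine output was also read as the level of each gene per kb in percent of Il6 in the same library. Csf1 was at 4.28 to 6.59% of Il6 in group B and at 5.39 to 7.14% in group D, overlapping ranges. Csf3 was at 8.54 to 22.7% and at 6.38 to 11.5%, which also overlap. Osm was at 1.63 to 3.79% in the first group and at 3.85 to 5.03% in the second, without overlap. Lif was at 0.163 to 3.05% in the first and at 0.050 to 0.0714% in the second, without overlap in the other direction. Csf2 ran from 0.292 to 8.82% in the first and from 0.207 to 0.571% in the second.

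**Figure D2:**
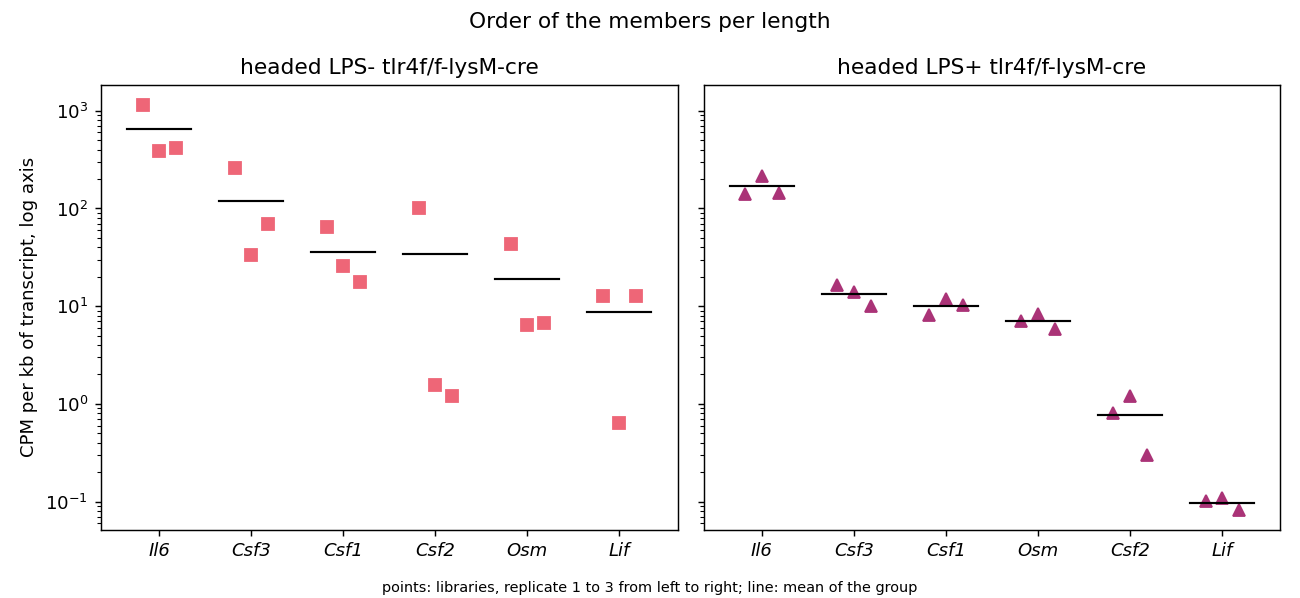
Level of the 6 genes per kb of transcript (CPM per kb, log axis) in group B (left) and group D (right), ordered by the mean of the group, which the lines show. Il6 is first in both, with means of 648 and 168 CPM per kb, and Lif is last in both.

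Differences were tested by quasi-likelihood in edgeR, and p-values were adjusted over all genes tested by the method of Benjamini and Hochberg. A gene was called changed at a fold change above 2 with an adjusted p below 0.01. The SE of a log2 fold change was taken as its size divided by the square root of the F statistic of the edgeR test. Group B against group A compares the genotypes without LPS as headed. In the exchanged reading the same libraries compare LPS+ with LPS- in tlr4f/f. All 6 genes were higher here with no overlap between the groups, which 25.1% of all genes tested also showed in this direction. Of the 6, Il6 and Csf3 were called, against 17.1% of 14635 genes called in either direction and 9.25% called higher. Il6, Lif, Csf2 and Csf3 passed the count filter only through group B, since each had 0 counts in 1 library of group A. The size of their fold changes, and of the median given below, therefore rests on near-absent counts in group A. Il6 was 10.62 higher on the log2 scale (SE 1.55, adjusted p = 0.00357 by edgeR) and Csf3 11.04 higher (SE 1.42, adjusted p = 0.00241 by edgeR). Leaving out 1 library moved these log2 fold changes between 9.95 and 12.69 for Il6 and between 9.83 and 12.03 for Csf3. Both calls were lost without replicate 2 of group A (adjusted p = 0.0196 for Il6 and 0.0150 for Csf3 by edgeR), and that of Il6 without any 1 library of group B (0.0105 to 0.0118). With no count filter edgeR called 0 of the 6 (adjusted p = 0.0224 for Il6 and 0.0149 for Csf3), whereas DESeq2 called 5, limma voom 3 and a single edgeR fit of all 12 libraries 6. The log2 fold change was 8.40 for Lif (adjusted p = 0.0112), 9.70 for Csf2 (0.0248), 3.87 for Csf1 (0.0238) and 3.28 for Osm (0.0252) by the same edgeR test. These 4 were not called at the threshold of 0.01, and all 6 passed at 0.05, as did 27.7% of all genes. Without replicate 1 of group B, the log2 fold change of Csf2 was 5.10 and that of Osm 1.79. Without replicate 1 of group A, it was 11.82 for Lif, 11.61 for Csf2 and 5.10 for Csf1. The median log2 fold change of the 6 genes was 9.05, and that of all genes tested -0.08.

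Group D against group C compares the genotypes with LPS as headed, and LPS+ with LPS- in tlr4f/f-lysM-cre in the exchanged reading. All 6 genes were called higher, against 21.7% of 14540 genes called in either direction and 10.8% called higher. The groups did not overlap for any of the 6, as for 33.6% of all genes tested in this direction. Il6, Lif, Csf2 and Csf3 passed the count filter only through group D, since their counts in group C were low. Il6 was 9.87 higher on the log2 scale (SE 0.381, adjusted p = 8.12e-06 by edgeR) and Csf3 8.17 higher (SE 0.326, adjusted p = 2.96e-07 by edgeR). Csf1 and Osm moved less, by 2.83 (SE 0.136, adjusted p = 5.86e-08 by edgeR) and 2.80 (SE 0.156, adjusted p = 1.03e-08 by edgeR). Lif and Csf2 were at the floor of 3 counts or under in each library of group C, so their ratio is given from the summed counts, scaled by the summed library sizes with their TMM factors. Lif, with 58 counts in group D and 3 in group C, was 22.5-fold higher (exact 95% counting interval 7.33 to 112, adjusted p = 0.000172 by edgeR). Csf2, with 95 counts and 1 count, was 111-fold higher (exact 95% counting interval 19.4 to 4412, adjusted p = 7.46e-05 by edgeR). The median log2 fold change of the 6 was 5.32 with the fitted values of these genes and 3.26 with group C set to 3 counts per library for them, beside -0.02 over all genes. All 6 calls were also made with each library left out in turn. In 1 fit of all 12 libraries, where the spread of groups A and B is shared, those of Lif, Csf1 and Csf2 were lost (adjusted p = 0.0884, 0.0143 and 0.0984 by edgeR).

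Group D against group B compares the treatments in tlr4f/f-lysM-cre as headed. In the exchanged reading it compares tlr4f/f-lysM-cre with tlr4f/f, both with LPS. The log2 fold change was below 0 for all 6 genes, and for 5 of them, Osm being the exception, the groups did not overlap, as in 22.5% of all genes tested in this direction. For Csf2 the groups nearly touched, with 1.244 CPM at the lowest in group B and 1.241 CPM at the highest in group D. None of the 6 was called by edgeR, against 6.08% of 14234 genes called and 3.65% called lower. Calls in this comparison needed all 3 libraries of group D, since only 4 to 15 of all genes were called without any 1 of them. At an unadjusted p below 0.05 there were 5, as for 5741 of 14234 genes, and at an adjusted p below 0.05 there were 4, as for 13.9% of all genes. DESeq2 called 4 of the 6 and 2002 of all genes, and limma voom 0 and 976. Lif was lower by the most, with a log2 fold change of -6.47 (SE 1.17, adjusted p = 0.0108 by edgeR). It was -5.51 for Csf2 (adjusted p = 0.0733), -3.17 for Csf3 (0.0245), -1.95 for Il6 (0.0245), -1.84 for Csf1 (0.0327) and -1.41 for Osm (0.210) by the same edgeR test. Replicate 1 of group B weighed on several of these. Without it the values were -0.87 for Csf2, -1.95 for Csf3, -1.27 for Il6, -1.12 for Csf1 and 0.092 for Osm, while Lif was at -6.10. Without replicate 2 of that group, edgeR called Lif (-7.02, adjusted p = 0.000159) and Csf3 (-3.62, adjusted p = 0.00872).

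Group C against group A compares the treatments in tlr4f/f as headed, and the genotypes without LPS in the exchanged reading. Lif, Csf2 and Csf3 had too few counts to be tested. The log2 fold change was -1.14 for Il6 (SE 1.34, adjusted p = 0.641), -0.91 for Osm (SE 0.273, adjusted p = 0.114) and -0.78 for Csf1 (SE 0.780, adjusted p = 0.576) by edgeR. None was called by edgeR, DESeq2 or limma voom, and only Osm had an unadjusted p below 0.05 and no overlap between the groups, as 18.8% of all genes tested did in this direction. Among all 14701 genes tested, 0% were called by edgeR, with 3624 at an unadjusted p below 0.05 and 464 called by DESeq2. Without replicate 1 of group A, the log2 fold change was 0.97 for Il6 and 0.46 for Csf1.

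The interaction is the log2 fold change of D against C minus that of B against A, and its value is the same in both readings. It was called for none of the 6 genes by edgeR, DESeq2 or limma voom, with none at an unadjusted p below 0.05, and for 1.04% of 15775 genes by edgeR. The values were -0.76 for Il6 (SE 1.33), -4.08 for Lif (SE 3.46), -0.48 for Osm (SE 0.885), -1.05 for Csf1 (SE 0.981), -3.36 for Csf2 (SE 8.0) and -2.85 for Csf3 (SE 1.56), on the log2 scale. For Lif and Csf2, with counts near 0 in groups A and C, an SE derived in this way is only a rough guide. A missing call for these genes does not mean that the 2 differences were alike.

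**Figure D3:**
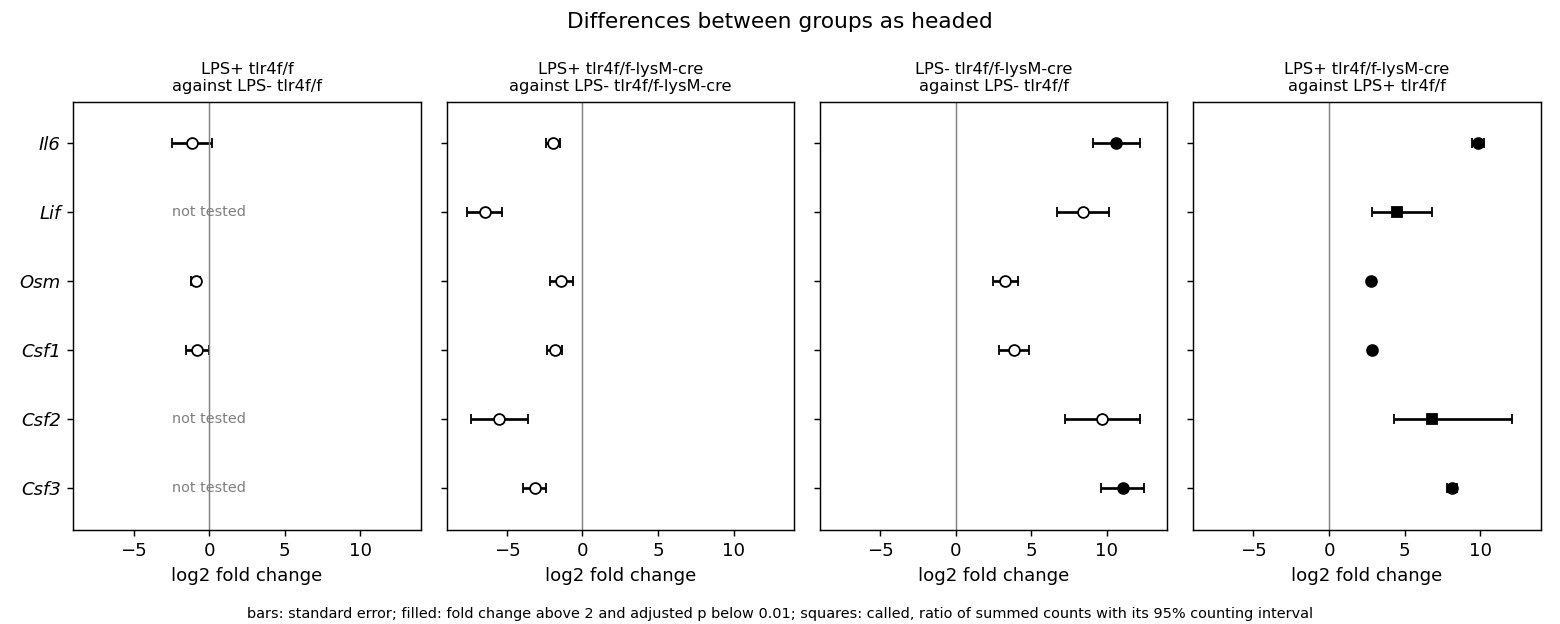
Log2 fold change of the 6 genes in the 4 comparisons as headed (from left to right C against A, D against B, B against A and D against C), with the standard error as a bar, filled points for called genes, and squares for Lif and Csf2 where the ratio of summed counts is shown with its counting interval. The genes lie right of 0 for B against A and D against C and left of 0 in the other comparisons, where none was called.

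The spread between libraries differed between the groups, and each of the 6 genes varied more in group B than in group D. Over 15775 genes, the median SD of log2 CPM (with 0.1 CPM added) was 0.312 and 0.355 in groups A and B, and 0.113 and 0.126 in groups C and D. In group B, the SD was 0.87 for Il6, 0.97 for Csf1, 1.5 for Csf3, 1.56 for Osm, 2.46 for Lif and 3.52 for Csf2 on the same scale. In group D it was 0.35 for Il6, 0.27 for Csf1, 0.35 for Csf3, 0.26 for Osm, 0.16 for Lif and 0.87 for Csf2. Stromal markers varied in these libraries too. Their summed level was 689, 63.7 and 10.9 CPM in replicates 1, 2 and 3 of group A and 1009.7, 192 and 1550 CPM in group B. It was 22.9 to 27.7 CPM in group C and 47.7 to 60.8 CPM in group D. All 8 stromal markers were above 3 counts in the libraries of 3 groups, and 7 of 8 in group A. Lif and Osmr, the receptor chain of oncostatin M, were high in the same libraries. Osmr was at 8.58, 0.407 and 8.31 CPM in group B, the 2 high libraries being those with the high stromal sum. In group B, Il6 did not follow this order. Replicate 2, with the lowest stromal sum of the group, had 444 CPM of Il6. Replicate 3, with the highest, had 471 CPM. Lif was at 3.06 CPM in that replicate 2 and at 0.342 CPM in replicate 1 of group A, whose stromal sum was 3.59 times as high. In group A, Il6, Osm, Csf1, Csf2 and Csf3 fell from replicate 1 to replicate 3, as the stromal sum did. Il6 was at 1.18, 0.209 and 0 CPM there, and Lif had 20, 0 and 1 counts. The part of stromal cells in the values of Osmr and the 6 genes was not tested. Neutrophil markers summed to 18.4 to 83.0 CPM in group B and to 3.42 to 41.3 CPM in group A, and their part in Csf3r below was not tested. In groups C and D, they summed to 7.52 to 15.5 and 6.56 to 13.8 CPM. Mmp8 had the highest mean of them, 20.0 CPM in group A and 32.2 CPM in group B. Means in groups A and B were 1.23 and 0.741 CPM for Mpo and 0.307 and 0.321 CPM for Elane. They were 0.297 and 2.43 CPM for Ltf, 0.105 and 1.89 CPM for Camp, and 1.07 and 7.95 CPM for Ngp. Ly6g had at most 1 count in any library.

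**Figure D4:**
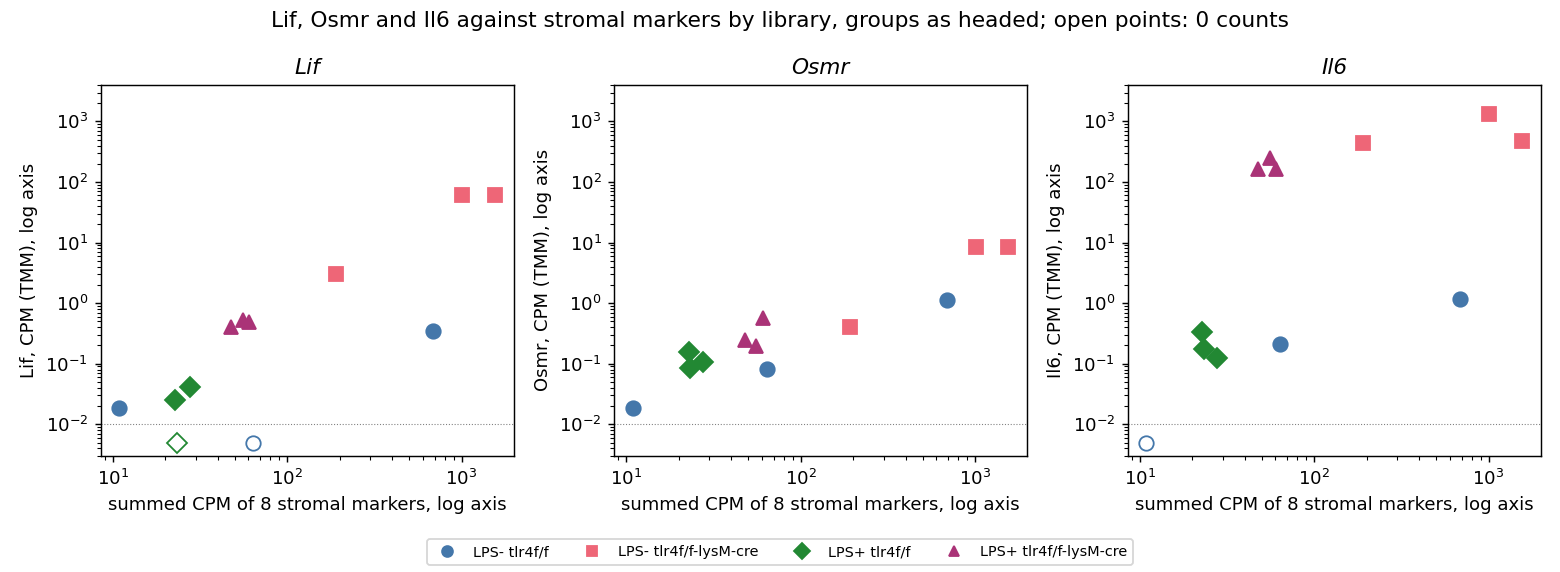
Levels of Lif, Osmr and Il6 (CPM, log axis) against the summed level of 8 stromal markers (CPM, log axis) in the 12 libraries, coloured by group as headed, with libraries at 0 counts as open points. Lif and Osmr are highest in the libraries with the highest stromal sums, while Il6 is between 161 and 248 CPM in group D at stromal sums of 47.7 to 60.8 CPM.

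Among the receptors, the chains that receive IL-6 were lower in B against A and in D against C, where the ligand was higher. Il6ra, the chain specific for IL-6, was at 59.6 ± 8.98 CPM (SD, n = 3) in group A and at 12.6 ± 3.22 CPM in group B, a log2 fold change of -2.25 (adjusted p = 0.00133 by edgeR). It was at 49.9 ± 1.63 CPM in group C and at 28.9 ± 5.87 CPM in group D, a log2 fold change of -0.79 (adjusted p = 0.00160 by edgeR), below the fold threshold. Il6st fell in both of these comparisons. It fell from 92.4 ± 12.8 to 32.0 ± 4.43 CPM in the first (log2 fold change -1.54, adjusted p = 0.00166) and from 118 ± 13.5 to 37.7 ± 3.32 CPM in the second (-1.65, adjusted p = 1.62e-07) by edgeR. Lifr, the second chain of the LIF receptor, fell in the second by 2.83 on the log2 scale (adjusted p = 8.76e-07 by edgeR), from 3.59 ± 0.262 to 0.501 ± 0.187 CPM. In the first it was at -2.33 (adjusted p = 0.0495 by edgeR). Of the 8 receptor genes of the IL-6 family, 2 of 6 tested were called lower in the first comparison and 2 of 5 in the second, and none higher. Among all genes tested, 17.1% and 21.7% were called in either direction. Osmr was at 3.79 in the first (adjusted p = 0.113 by edgeR) and had too few counts for the second. Il11ra1 (-0.39 and -0.44) and Il27ra (0.18 and -0.37), the chains for IL-11 and IL-27, were not called in either, and Cntfr and Il31ra had too few counts to be tested.

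Of the 5 receptor genes of the colony-stimulating factors, Csf3r alone was called, in D against C, where 21.7% of all genes tested were called in either direction. Csf3r rose from 13.7 ± 2.99 CPM in group C to 106 ± 10.0 CPM in group D, by 2.96 on the log2 scale (adjusted p = 1.32e-05 by edgeR). It was at 19.6 ± 12.6 CPM in group A and at 240 ± 145 CPM in group B, 3.61 on the log2 scale (adjusted p = 0.0176 by edgeR). Csf1r, the M-CSF receptor that marks macrophages, stayed between 1038 and 2900 CPM in all libraries, with log2 fold changes of -0.60 and 0.38 in these comparisons. Csf2ra was at 0.33 and 0.24 and Csf2rb at 1.25 (adjusted p = 0.0364) and 0.96 (adjusted p = 1.95e-08) by edgeR, the latter below the fold threshold. Csf2rb2, a close copy of Csf2rb with which it can share reads, was at 0.02 and -0.20. In the other comparisons, edgeR called no receptor gene. Between groups D and B, 7 of 11 tested had an unadjusted p below 0.05, as had 5741 of 14234 genes, and DESeq2 called 5 and limma voom 0. Between groups C and A, 6 of 10 had an unadjusted p below 0.05, as had 3624 of 14701 genes, and DESeq2 called 2 (464 of all genes) and limma voom 0 (28 of all genes). In D against B, edgeR gave 1.21 for Il6ra (adjusted p = 0.0152), 1.58 for Il27ra (0.0127) and 1.21 for Il11ra1 (0.0313). It gave -2.29 for Lifr (0.0336), -4.08 for Osmr (0.0361), 0.65 for Csf2rb (0.0210) and 0.57 for Csf2rb2 (0.124). Il6st was at 0.24 there (adjusted p = 0.260 by edgeR), with overlap between the groups, while Il6 was at -1.95. In C against A, Il27ra was at 2.14 (adjusted p = 0.0536 by edgeR).

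**Figure D5:**
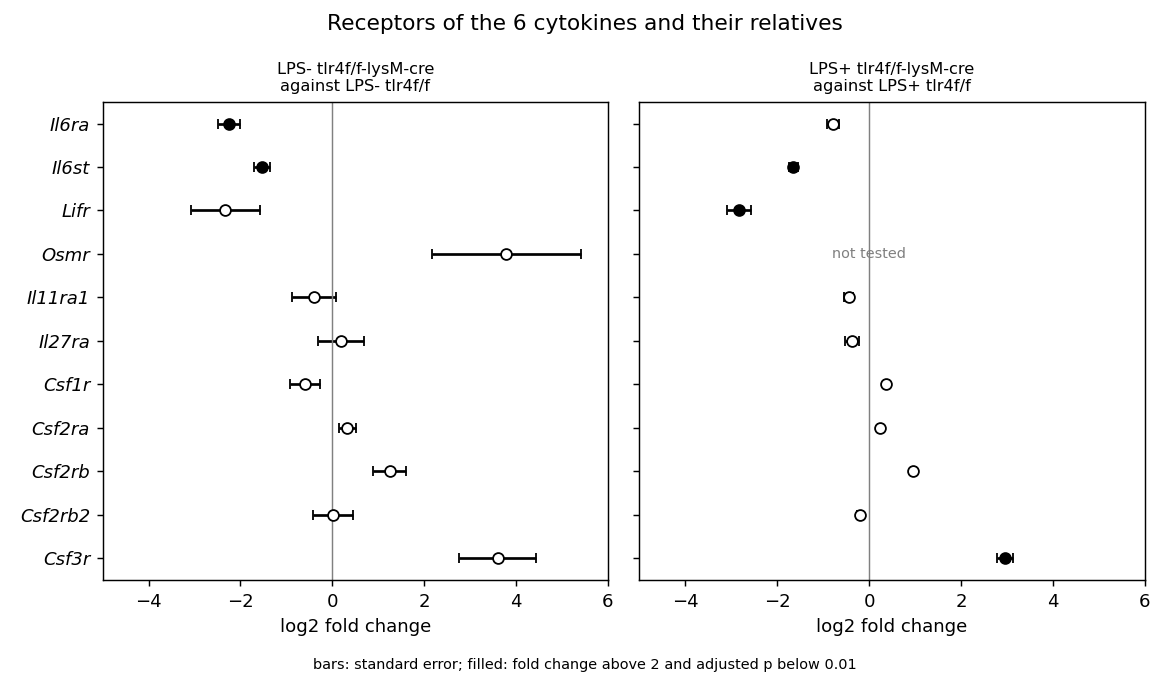
Log2 fold change of 11 receptor genes for B against A (left) and D against C (right), with the standard error as a bar and filled points for called genes. Il6st lies near -1.6 in both panels, Il6ra is called in the first, Lifr and Csf3r in the second.

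Among 9 other ligands and subunits of the IL-6 family, Il27 and Ebi3 moved with the 6 genes. They encode the subunits of IL-27, a relative of IL-6 made by activated macrophages. Il27 was at 1.15 ± 0.607 CPM in group A, 355 ± 146 CPM in group B, 0.764 ± 0.0638 CPM in group C and 45.9 ± 8.24 CPM in group D. It was higher by 8.25 in B against A (adjusted p = 0.000671) and by 5.89 in D against C (adjusted p = 3.35e-10) on the log2 scale by edgeR. It fell by 2.94 from group B to group D (adjusted p = 0.00313 by edgeR). Ebi3 was at 2.62 (adjusted p = 0.00131), 2.13 (adjusted p = 2.84e-07) and -1.60 (adjusted p = 0.00699) in the same comparisons by edgeR. Without any 1 library of group D the third call was lost for both, and without replicate 1 or 2 of group B it was lost for Ebi3. Clcf1, another ligand that uses gp130, was called only in D against C, at 1.38 (adjusted p = 7.41e-05 by edgeR). Of 5, 4 and 5 genes of this list tested, 2, 3 and 2 were called in B against A, D against C and D against B, in the directions given. Among all genes tested, 9.25% and 10.8% were called higher in the first and second of these and 3.65% lower in the third. None of 4 was called in C against A, where 1 had an unadjusted p below 0.05, as had 3624 of 14701 genes. The other ligands of the receptors of the colony-stimulating factors, Il34, Il3 and Il5, had too few counts to be tested in any comparison.

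The relay below these receptors was read from 9 JAK, STAT and phosphatase genes. Of these, 5 were called higher in B against A and 5 in D against C, and none lower. Among all genes tested, 9.25% and 10.8% were called higher. Jak2, the kinase of the GM-CSF receptor, was at 4.68 (adjusted p = 0.000394) and 3.16 (adjusted p = 1.03e-12), and Stat3 at 2.42 (adjusted p = 0.000874) and 1.08 (adjusted p = 3.49e-09) by edgeR. Jak2, Jak3 and Stat3 fell from group B to group D, by 1.35, 1.17 and 1.81 on the log2 scale (adjusted p = 0.00143, 0.00785 and 0.00192 by edgeR). These 3 of the 9 were called lower there and none higher, against 3.65% of all genes tested called lower. Without any 1 library of group D, only 4 to 15 of all genes were called in that comparison. None of the 9 was called by edgeR in C against A, where 3 had an unadjusted p below 0.05, as had 3624 of 14701 genes.

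Targets and feedback genes of STAT3 and STAT5 were taken from a list of 9. Of these, 8 were called higher in D against C and 5 in B against A, and none lower. Among all genes tested, 10.8% and 9.25% were called higher. Socs3, the feedback inhibitor of gp130, was at 2.38 ± 0.707 CPM in group C and at 471 ± 8.44 CPM in group D, 7.65 on the log2 scale (adjusted p = 1.27e-09 by edgeR). It was at 7.17 ± 5.21 CPM in group A and at 2093 ± 437 CPM in group B, 8.17 on the log2 scale (adjusted p = 0.00194 by edgeR). Socs1 was at 5.54 and 5.95 and Cish, a target of STAT5, at 5.23 and 5.73 in these comparisons, the last not called (adjusted p = 0.0174 by edgeR). Socs3, Pim1, Bcl3 and Junb fell from group B to group D, by 2.14, 1.25, 1.40 and 1.40 on the log2 scale (adjusted p = 0.00113 to 0.00371 by edgeR). These 4 of the 9 were called lower there and none higher, against 3.65% of all genes tested called lower. Without any 1 library of group D, only 4 to 15 of all genes were called in that comparison. None of the 9 was called by edgeR in C against A, where 2 had an unadjusted p below 0.05, as had 3624 of 14701 genes.

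Of 15 transcription and mRNA decay factors that act on these cytokine genes, 9 were called higher in B against A and 10 in D against C, and none lower. Among all genes tested, 9.25% and 10.8% were called higher. Nfkbiz, a co-factor of NF-kB needed for Il6, was at 4.96 (adjusted p = 0.000410) and 5.65 (adjusted p = 2.16e-09) on the log2 scale by edgeR. Zc3h12a, the nuclease that degrades Il6 mRNA, was at 4.32 (adjusted p = 0.000495) and 4.39 (adjusted p = 8.19e-13), and Zfp36 at 3.75 (adjusted p = 0.000665) and 2.23 (adjusted p = 8.80e-11) by edgeR. The AP-1 genes Jun and Fos were below 0 in B against A, at -0.83 (adjusted p = 0.0607) and -1.29 (adjusted p = 0.127) by edgeR. From group C to group D, Jun went from 98.5 ± 1.87 to 60.7 ± 6.33 CPM and Fos from 90.0 ± 5.12 to 86.7 ± 23.7 CPM. Neither was called in these comparisons. Zfp36, Cebpb, Nfkbia and Nfkbiz fell from group B to group D, by 1.81, 1.27, 1.23 and 1.14 on the log2 scale (adjusted p = 0.00125 to 0.00381 by edgeR). These 4 of the 15 were called lower there and none higher, against 3.65% of all genes tested called lower. Without any 1 library of group D, only 4 to 15 of all genes were called in that comparison. None of the 15 factors was called by edgeR in C against A, where 6 of 15 had an unadjusted p below 0.05, as had 3624 of 14701 genes. The 6 genes are flanked by 10 protein-coding genes that are no members of the set, of which 6 were tested in each comparison. Dnajb6, a chaperone gene 194979 bases from Il6, was the only one called, at 2.00 in B against A and 1.37 in D against C (adjusted p = 0.00159 and 6.46e-10 by edgeR).

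Genes with the most similar pattern were taken by Pearson's r of log2 CPM over the 12 libraries, among 15775 genes. The 12 points share their 4 groups, and r is a description. Il6 was most like Gbp3 and Gbp5 (r = 0.995 for both), which encode guanylate-binding proteins induced by interferon. Gbp5 was at 1636 ± 272 CPM in group B, at 586 ± 53.1 CPM in group D and at no more than 4.20 CPM on average in the others. Csf3 was most like Tnf and Tma16 (r = 0.994 for both). Csf1 was most like Mlkl (r = 0.989), the executor of necroptosis, and Inhba (r = 0.988), which encodes activin A. Osm was most like Sqstm1 (r = 0.984), an autophagy receptor, and Vps37c (r = 0.967), and Csf2 most like Ctnna1 (r = 0.979) and Cry1 (r = 0.978). Lif was most like Mmp3 (r = 0.983), a matrix protease of fibroblasts, and Kansl1l (r = 0.976). Mmp3 had a mean of 35.3 ± 36.2 CPM in group B and of 0.900 ± 0.0999 CPM in group D.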

How the data were processed

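The authors deposited whole-number read counts per transcript for 12 libraries from poly(A) RNA of BMDMs. Per the labels, reads were processed with Trimmomatic 0.36, FastQC, HISAT2 and HTSeq on mm10, and strand use in the counting is not given in the sources used here. The table held 115140 transcripts, and each of 43131 genes was read from its transcript with the highest total. Each pair of groups was fitted with edgeR 4.0.16 in R 4.3.3 (filterByExpr, TMM, robust quasi-likelihood) and the interaction over all 12 libraries. Calls took the study's criteria, a fold above 2 and an adjusted p below 0.01. Alternatives used DESeq2 1.42.0, limma 3.58.1 (voom), RLE factors, no count filter, sums over transcripts, a replicate block and left-out libraries, and the edgeR fits were tested on simulated counts. Members and gene lists were chosen with earlier results of these data known. Named genes were the 6 members, the genes that check the headings, all listed receptors, up to 4 called genes of each other list with the largest change, and the 2 most similar genes per member. Marker genes of 7 cell types were summed per library.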

Additional observations from a re-analysis of the deposited data

Results flagged for a closer look

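The effect of the genotype heading differed between the LPS headings for 3 genes of the pathway by the interaction test of edgeR. In the exchanged reading, it is the effect of LPS that differed between the genotypes. The 3 were 2 of 9 tested in the JAK and STAT relay and 1 of 9 among the targets and feedback genes of STAT3 and STAT5. No gene of the other lists was called, and over all genes 1.04% of 15775 were. The interaction was -1.53 for Jak2 (adjusted p = 0.00236), -1.34 for Stat3 (adjusted p = 0.00813) and -1.56 for Junb (adjusted p = 0.00244) on the log2 scale, so that each rose less from group C to group D than from group A to group B. Leaving out any 1 library of group C or D, or of group A for Stat3, raised the adjusted p above the threshold of 0.01, to at most 0.0136 for Jak2, 0.0155 for Junb and 0.0333 for Stat3 by edgeR.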

How the results depend on the processing

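The direction of the 6 genes in B against A and D against C was the same under all alternatives run. Of the 6, 2 were called in B against A, 5 by DESeq2, 0 with no count filter, 6 in 1 fit of all 12 libraries and 6 at an adjusted p below 0.05. Leaving out 1 library gave 0 to 2 there (0 without replicate 2 of A, 1 without replicate 1 or 3 of B). In D against B, 0 were called, with 4 by DESeq2, 2 in 1 fit, 4 at 0.05 and 0 to 2 without 1 library. In D against C, 6 were called, and 3 in 1 fit. No label says that replicate numbers mark pairs, and correlations between same-numbered libraries did not settle it. Of 12 such correlations 4 were above 0.1, and in 7 of 12 the own number gave the highest. For B against A they were 0.472, 0.340 and 0.0143 in replicates 1 to 3. With a replicate block, 5 were called in B against A and 0 in D against B. Among all genes, the block called 212 in D against B, against 865 without it. DESeq2 called 2002 there, 3992 in B against A (edgeR 2497), 464 in C against A (edgeR 0) and 644 interactions (edgeR 164). No filter and limma voom called 34 and 28 in C against A. The single fit called 74 in C against A, 4251 in B against A and 2045 in D against C (edgeR by pairs 3161). Without 1 library, all-gene calls ran from 0 to 184 in C against A, 4 to 1178 in D against B, 1038 to 1682 in B against A and 10 to 306 for the interaction. The cause of these differences was not tested.

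Values whose sign changed were small or rested on 1 library. With the block, C against A was 0.033 for Il6 and 0.63 for Il1b. In B against A, Csf2rb2 was at -0.029 by limma voom and -0.020 with no filter, and Tlr4 at 0.0079 by DESeq2 and 0.0079 with RLE factors. Without 1 library, C against A ranged from -1.72 to 0.97 for Il6, -1.27 to 0.46 for Csf1 and -0.77 to 0.64 for Il1b. D against B ranged from -1.82 to 0.092 for Osm, -0.025 to 0.13 for Csf2ra and -1.08 to 0.21 for Il1b. B against A ranged from -0.80 to 0.15 for Il11ra1, -0.16 to 0.67 for Il27ra, -0.29 to 0.51 for Csf2rb2 and -0.29 to 0.15 for Tlr4. The interaction ranged from -0.90 to 1.03 for Osm and from -5.27 to 1.26 for Csf2, the highest of both without replicate 1 of B. Counts of 3 or fewer in each library of group C limit what could be seen of Lif and Csf2.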
